A study of Mus musculus with 8 samples.

Results

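The genes described are 42 factors of ribosome biogenesis, the nucleolar proteins that transcribe, cut, modify and assemble ribosomal RNA. They are a list of gene names, matched by symbol to the count table of a study of microglia, and all 42 were found among its 46078 genes. Every member passed the filter on low counts in each of the 6 comparisons between groups.

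The study sequenced RNA of the mouse microglial cell line BV-2 to see how aged garlic extract and a compound in it alter the response to a bacterial stimulus, with 2 libraries in each of 4 groups. All 4 groups were first kept without serum for 4 hours. The Control group then received neither LPS nor another agent. The LPS group received lipopolysaccharide from the outer membrane of Escherichia coli at 100 ng/mL, for 20 hours by the methods of the study. The AGE+LPS group received aged garlic extract at 0.5% v/v, and the FruArg+LPS group received FruArg, a sugar derivative of arginine found in the extract, at 3 mM, each 1 hour before the same LPS. Total counts were 2707500 and 8995052 in Control, 8720784 and 12069807 in LPS, 6795464 and 6669072 in AGE+LPS, and 4692715 and 5822113 in FruArg+LPS, with replicate 1 first here and throughout. Levels are in CPM, counts scaled to the total of the library, with that total adjusted by TMM. TMM is a normalization that sets the bulk of genes equal between libraries. The most abundant gene of a list or role is the one with the highest mean over all libraries, which need not hold in each library. By the library totals without TMM, a count of 3 equals 0.249 to 1.11 CPM across these libraries. The lowest count of any member was 8, for Fbl in FruArg+LPS replicate 1.

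The label of the cells was checked against marker genes. All 8 microglia and macrophage markers were counted in each library, with a summed level of 2195 to 2926 CPM. Ptprc was the most abundant over all libraries, but in FruArg+LPS replicate 1 it stood at 469 CPM, below Csf1r (668 CPM) and Cd68 (613 CPM). Of the markers of resting microglia, Sall1 was at 0 in all 8 libraries, Siglech had at most 1 count and Tmem119 at most 6. With LPS, 2 of the 8 microglia and macrophage markers were lower and 0 higher at an edgeR adjusted p below 0.05 (DESeq2 also 0 higher, and 1 higher at an unadjusted p below 0.05), and with the replicate number as a block 3 were lower and 4 higher. P2ry12 and Cx3cr1 of resting microglia fell. No marker of neurons, astrocytes, oligodendrocytes or fibroblasts passed the filter, and the highest count of any of them in a library was 6, 9, 10 and 1 in that order of cell types. The 6 genes listed as a check of the LPS stimulus all rose, with Saa3 at 11.5 and 11.7 CPM in Control and 5291 and 5529 CPM in LPS.

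FruArg+LPS replicate 1 stood apart from the other libraries. It held counts for 14607 genes, fewer than the 16341 of Control replicate 1, which had fewer counts in all. The remaining 6 libraries held counts for 17057 to 18728 genes. Counts of members called in FruArg+LPS are therefore given with and without this library.

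Ribosomes are built in the nucleolus, where RNA polymerase I copies the ribosomal DNA into a long precursor. Small nucleolar ribonucleoproteins (snoRNPs) of the box C/D and box H/ACA classes modify this precursor while the processome and other factors fold, cut and export the small and the large subunit. The process uses much of the energy of a growing cell, and the transcription factor Myc is known to drive many of its genes.

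Most of the members were expressed above the median level of all genes. Per kilobase of exon, their median level over the 8 libraries was 11.5 CPM, against 5.99 CPM for the 12835 genes kept over all libraries, and 30 of the 42 lay above that median. Npm1, a nucleolar chaperone, had the highest level per kilobase at 126 CPM, followed by Nhp2, a core protein of box H/ACA snoRNPs, at 100.3 CPM and Nip7, a factor of large-subunit assembly, at 39.2 CPM. The lowest level per kilobase was that of Fbl, the methyltransferase of box C/D snoRNPs, at 0.853 CPM. Next lowest was Rrp1b, a nucleolar protein of the large-subunit pathway, at 1.57 CPM. Length covered every annotated exon of a gene, so this order depends on the annotation too. Fbl also shares 15.3% of its stretches of 100 bases with other genes.

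Added up, the members took a larger share of the RNA in untreated cells than in any group that received LPS. Their summed level, scaled by TMM (a normalization that sets the bulk of genes equal between libraries), was 2718 and 2957 CPM in Control, 2146 and 2180 in LPS, 2263 and 2469 in AGE+LPS, and 2057 and 1962 in FruArg+LPS. Both Control libraries lay above the other 6, both AGE+LPS libraries lay above both LPS libraries, and both FruArg+LPS libraries lay below them. The group means were 2837 ± 169 (SD, n = 2), 2163 ± 24.3, 2366 ± 145 and 2010 ± 67.5 CPM. As a share of all counts, with no scaling, the members made up 0.322% and 0.350% in Control, 0.197% and 0.196% in LPS, 0.233% and 0.244% in AGE+LPS, and 0.191% and 0.177% in FruArg+LPS.

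**Figure D1:**
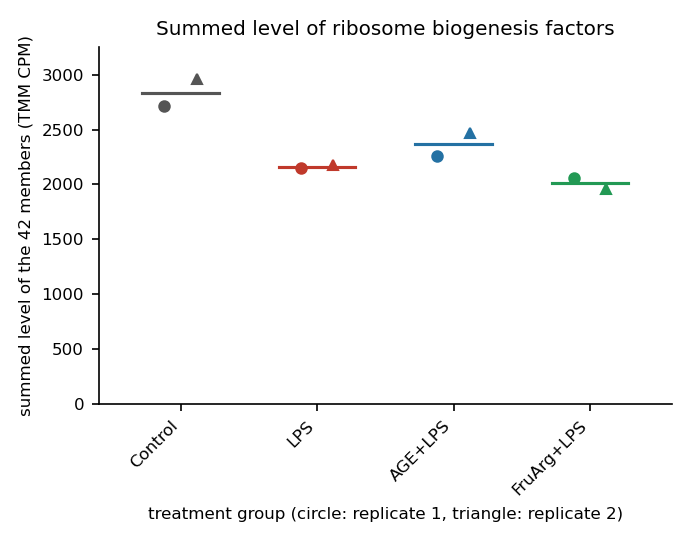
The vertical axis is the level summed over the 42 members in TMM CPM, the horizontal axis the 4 treatment groups, with a circle for replicate 1, a triangle for replicate 2 and a line at the mean. Control lies at 2718 and 2957 CPM, and the 6 libraries with LPS lie between 1962 and 2469 CPM.

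The comparison of LPS with Control asks what the stimulus alone does. Members from all 7 roles fell with LPS, led by Dkc1, the pseudouridine synthase of box H/ACA snoRNPs, by Rrp1b, and by Polr1b, a subunit of the catalytic core of RNA polymerase I. Members that fell at least 2-fold stood beside others of the same role that did not pass the test. Ddx10, an RNA helicase of the small-subunit processome, rose.

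By the edgeR quasi-likelihood test, 9 members were differentially expressed (DEGs: adjusted p below 0.05 and at least a 2-fold change), all of them lower, beside 11.1% of the 12888 genes tested that were DEGs in that direction. None of the members was a higher DEG (a count of 0, with 0 by DESeq2 and 1 higher at an unadjusted p below 0.05, as were 2772 genes), beside 11.5% of all genes. At an adjusted p below 0.05 and any fold, 12 members were lower, beside 14.3% of genes, and 1 was higher, beside 16.3%. In 30 members both LPS libraries lay below both Control libraries, and in 4 above (4451 and 4071 of the genes tested). The median log2 fold change of the members was -0.53, and that of all genes tested was 0.02. Within each lane of the sequencer the members' median ratio was -0.38 (replicates 1) and -0.59 (replicates 2) on the log2 scale, with 31 members lower and 8 higher in both (5341 and 5028 of 12888 genes). Scaling by library size moved the median of all genes to -0.40 and that of the members to -0.96, which keeps their difference at -0.55 in each case. With that scaling 16 members were DEGs and 27 had an edgeR adjusted p below 0.05, all lower (2666 and 3705 of 12888 genes were lower by these rules). The p-values here and below measure only the spread between these libraries. RNA was taken from whole cultures, so less RNA per cell and fewer cells that hold it cannot be told apart.

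Replicates of the same number ran in 1 lane in all 4 groups. The column names of replicates 2 also carry a tag that those of replicates 1 lack. Lane therefore cannot be told apart from other differences between the replicate numbers. With the replicate number as a block in the model, 22 members were lower at an adjusted p below 0.05, beside 22.9% of genes, and 1 was higher, beside 24.9%. The 9 DEGs were the same with the block. With the block, the 4 libraries of a comparison leave little from which to estimate the spread of a gene. Its p-values, here and below, therefore rest largely on spread shared across genes. Polr1b, Nop56, Dkc1, Heatr1 and Rrp1b (5 of the 9) were DEGs also with any 1 of the 4 libraries left out. The count at an adjusted p below 0.05 was 8 without Control replicate 1, all lower, beside 1232 of 13543 genes, and 7 without Control replicate 2, all lower, beside 1159 of 13172.

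**Figure D2:**
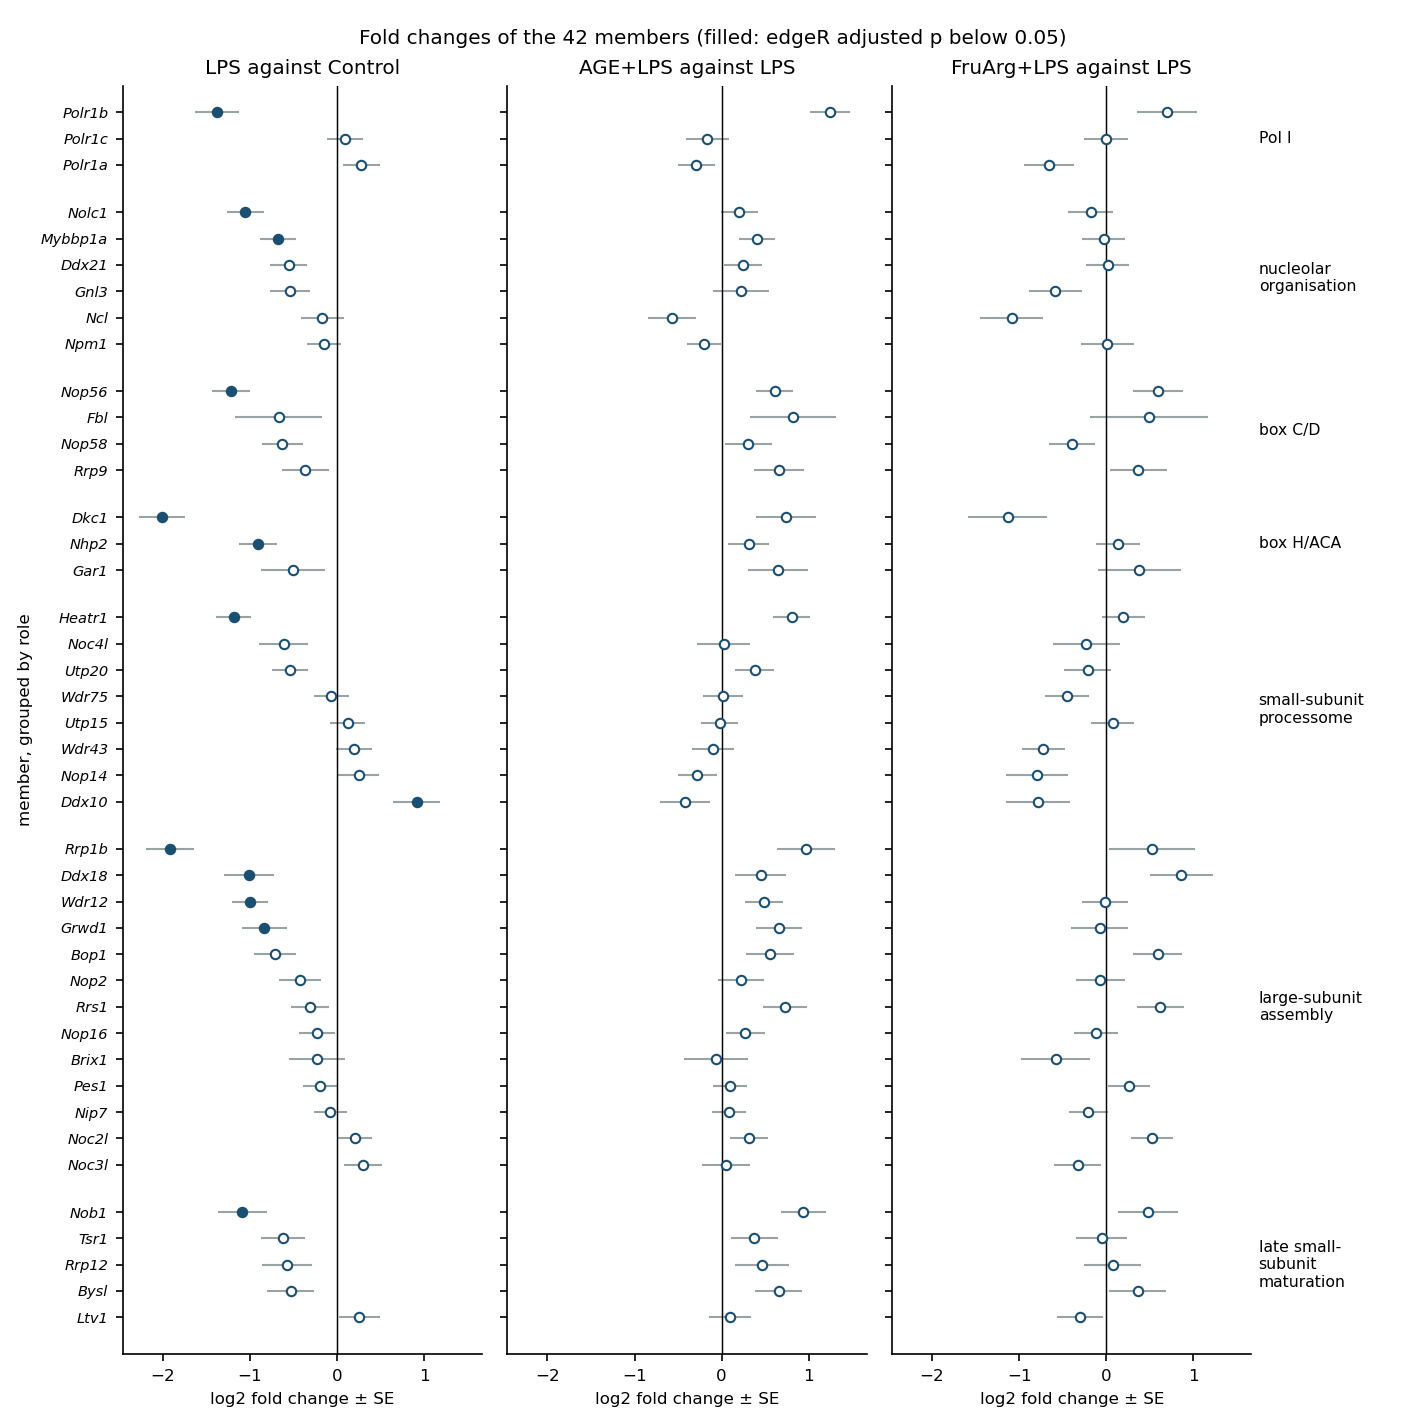
Each point is the log2 fold change (horizontal axis) of 1 member (vertical axis, grouped by role) in 3 comparisons of 4 libraries each, with its SE, filled where the adjusted p is below 0.05. The filled points lie in the comparison of LPS with Control, from Dkc1 at -2.01 to Ddx10 at 0.91.

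Of the 3 members that belong to RNA polymerase I, only Polr1b passed the test. Its level was 37.1 and 29.6 CPM in Control, 12.3 and 12.5 in LPS, 30.4 and 28.2 in AGE+LPS, and 24.6 and 15.6 in FruArg+LPS. Both LPS libraries were the lowest of the 8, and both AGE+LPS libraries lay close to the range of Control. With LPS the gene fell by 1.38 ± 0.25 (SE) on the log2 scale (edgeR adjusted p = 0.0030), with both LPS libraries below both Control libraries. Polr1a, the largest subunit, stood at 38.7 and 42 CPM in Control, 51.3 and 44.4 in LPS, 40.2 and 37.9 in AGE+LPS, and 24.3 and 36.0 in FruArg+LPS. It was highest in the LPS libraries and lowest in the FruArg+LPS libraries. Its log2 fold change with LPS was 0.28 ± 0.21 (edgeR adjusted p = 0.36), and -0.14 under scaling by library size. Polr1c, a subunit shared with RNA polymerase III and the most abundant of these 3, was at 61.7 and 54.2 CPM in Control, 62.4 and 57.5 in LPS, 62.6 and 44.2 in AGE+LPS, and 54.0 and 64.7 in FruArg+LPS. All 4 groups overlapped. Its log2 fold change with LPS of 0.09 ± 0.21 became -0.33 under scaling by library size, and it was -0.02 without Control replicate 2.

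Among the 6 members that organise the nucleolus, Nolc1, which binds snoRNPs, and Mybbp1a, a protein of ribosomal DNA chromatin, fell, and all 6 had negative log2 fold changes with LPS. Nolc1 stood at 81.4 and 104 CPM in Control, 42.7 and 44.8 in LPS, 52.9 and 47.7 in AGE+LPS, and 34.7 and 42.1 in FruArg+LPS. Both Control libraries lay well above the other 6. Nolc1 fell by 1.05 ± 0.21 with LPS (edgeR adjusted p = 0.0051), but without Control replicate 2 the log2 fold change was -0.88 and the adjusted p 0.088. Mybbp1a went from 103 and 106 CPM in Control to 69.4 and 57.9 in LPS, with 82.3 and 85.8 in AGE+LPS and 60.6 and 63.2 in FruArg+LPS. The AGE+LPS libraries stood between Control and LPS, and those of FruArg+LPS fell inside the range of LPS. Mybbp1a fell by 0.68 ± 0.20 with LPS (edgeR adjusted p = 0.031), and its adjusted p was 0.19 without Control replicate 1, 0.23 without Control replicate 2 and 0.069 without LPS replicate 2.

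The most abundant member, Npm1, differed little between Control and LPS. Its levels were 379 and 382 CPM in Control, 325 and 345 in LPS, 272 and 309 in AGE+LPS, and 431 and 240 in FruArg+LPS. Both LPS libraries lay below Control, and the FruArg+LPS libraries held both the highest and the lowest level. The log2 fold change with LPS was -0.15 ± 0.20 (edgeR adjusted p = 0.61). Npm1 shares 12.7% of its stretches of 100 bases with other annotated genes, so its counts are uncertain. Ncl, or nucleolin, an abundant RNA-binding protein of the nucleolus, was counted at 131 and 212 CPM in Control, 140 and 158 in LPS, 75.9 and 125 in AGE+LPS, and 42.5 and 96.9 in FruArg+LPS. Replicate 2 was the higher one in each of the 4 groups, and the LPS libraries lay inside the range of Control. For Ncl the log2 fold change with LPS was -0.17 ± 0.25 (edgeR adjusted p = 0.64), and 0.20 without Control replicate 2. The RNA helicase Ddx21 and the GTPase Gnl3, or nucleostemin, were lower in both LPS libraries than in both Control libraries, with log2 fold changes of -0.55 and -0.54. Their adjusted p was 0.078 and 0.11 by edgeR and 0.0058 and 0.011 with the block, and over alternatives that keep all libraries it ran from 0.0046 to 0.15 and from 0.0098 to 0.21. Without LPS replicate 2 they were 0.046 and 0.018.

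The box C/D snoRNPs, which methylate ribosomal RNA, are represented by 4 members, and all 4 were lower in both LPS libraries than in both Control libraries. Nop56, a core protein, stood at 77.7 and 65.5 CPM in Control, 29.9 and 29.9 in LPS, 46.7 and 44.5 in AGE+LPS, and 52.6 and 37.3 in FruArg+LPS. All 4 libraries with a co-treatment lay between LPS and Control. Nop56 fell by 1.22 ± 0.21 with LPS (edgeR adjusted p = 0.0025). Its partner Nop58 was at 94.5 and 124 CPM in Control, 58.4 and 79.4 in LPS, 69.2 and 101 in AGE+LPS, and 51.9 and 52.6 in FruArg+LPS. The AGE+LPS libraries overlapped with LPS, while both FruArg+LPS libraries lay below every other library. The log2 fold change of Nop58 with LPS was -0.63 ± 0.23, with an edgeR adjusted p of 0.069, of 0.0015 with the block (0.0015 to 0.10 over alternatives that keep all libraries) and of 0.0058 without LPS replicate 2. For Fbl and for Rrp9, a protein of the snoRNP that starts the cutting of the precursor, the log2 fold changes were -0.67 and -0.36, with edgeR adjusted p-values of 0.35 and 0.34.

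The largest fall of any member was in the box H/ACA snoRNPs, which turn uridines of ribosomal RNA into pseudouridines. Dkc1, their enzyme, had 49.9 and 56.0 CPM in Control, 10.3 and 15.3 in LPS, 16.2 and 26.6 in AGE+LPS, and 3.90 and 7.62 in FruArg+LPS. The 4 groups did not overlap, with Control highest, then AGE+LPS, LPS and FruArg+LPS. With LPS Dkc1 fell by 2.01 ± 0.26 (edgeR adjusted p = 0.0005). Nhp2 was at 160 and 177 CPM in Control, 100.2 and 75.1 in LPS, 116 and 100.3 in AGE+LPS, and 101 and 90.2 in FruArg+LPS. Control was highest in both libraries and the other 3 groups lay close together. Nhp2 fell by 0.91 ± 0.21 with LPS (edgeR adjusted p = 0.011), but its adjusted p was 0.092 without Control replicate 2. Without LPS replicate 1 it was a DEG, with a log2 fold change of -1.12. Gar1, the remaining core protein of the list, had a log2 fold change of -0.51 ± 0.37 (edgeR adjusted p = 0.34), from a mean of 6.45 ± 1.62 CPM in Control to 4.54 ± 0.22 in LPS.

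The small-subunit processome, which makes the early cuts in the precursor, had members that went in opposite directions. Heatr1, which links transcription to processing, had 119 and 109 CPM in Control, 47.5 and 49.7 in LPS, 77.0 and 92.6 in AGE+LPS, and 54.0 and 56.6 in FruArg+LPS. The AGE+LPS libraries stood between Control and LPS, and the FruArg+LPS libraries just above LPS. Heatr1 fell by 1.19 ± 0.20 with LPS (edgeR adjusted p = 0.0019). Ddx10 was the member that rose, from 26.8 and 32.1 CPM in Control to 42.2 and 66.5 in LPS, with 35.2 and 45.8 in AGE+LPS and 21.6 and 41.3 in FruArg+LPS. Both LPS libraries lay above both Control libraries, and the other 2 groups overlapped with at least 1 of these. Ddx10 rose by 0.91 ± 0.27 with LPS (edgeR adjusted p = 0.028). That adjusted p was 0.16 without Control replicate 1, 0.066 without Control replicate 2 and 0.086 without LPS replicate 2, and it was 0.17 under scaling by library size (9.4e-05 to 0.17 over alternatives that keep all libraries). Without LPS replicate 1 it was a DEG, with a log2 fold change of 1.20. Wdr43, the most abundant of the 8, was at 82.0 and 98.0 CPM in Control, 92.5 and 109 in LPS, 77.8 and 109 in AGE+LPS, and 55.3 and 65.7 in FruArg+LPS. Both FruArg+LPS libraries were the lowest of the 8, and the other 3 groups overlapped. Wdr43 had a log2 fold change with LPS of 0.19 ± 0.21, and -0.23 under scaling by library size.

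Nop14, also of the processome, stood at 32.1 and 43.7 CPM in Control, 39.8 and 48.8 in LPS, 35.7 and 37.2 in AGE+LPS, and 16.8 and 33.9 in FruArg+LPS. Control and LPS overlapped, and FruArg+LPS replicate 1 was the lowest library. The log2 fold change of Nop14 with LPS was 0.25 ± 0.24 (edgeR adjusted p = 0.47), and -0.18 under scaling by library size. Of the other 4, Utp20 and Noc4l were lower in both LPS libraries than in both Control libraries, with log2 fold changes of -0.54 and -0.61, while Wdr75 and Utp15 overlapped. By edgeR the adjusted p of Utp20 was 0.076, or 0.010 with the block (0.0062 to 0.18 over alternatives that keep all libraries). That of Noc4l was 0.13, or 0.039 with the block (0.018 to 0.32 over alternatives that keep all libraries).

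Large-subunit assembly has 13 members, of which 4 fell with LPS and 9 did not pass the test. Rrp1b had 24.0 and 21.6 CPM in Control, 6.01 and 5.71 in LPS, 13.6 and 9.26 in AGE+LPS, and 11.7 and 5.14 in FruArg+LPS. Control was far above the rest, AGE+LPS lay between, and the FruArg+LPS libraries fell on either side of LPS. Rrp1b fell by 1.92 ± 0.28 with LPS (edgeR adjusted p = 0.0009). Wdr12, which forms a complex with Bop1 and Pes1, was at 73.9 and 77.0 CPM in Control, 39.1 and 34.5 in LPS, 55.5 and 47.7 in AGE+LPS, and 33.5 and 38.6 in FruArg+LPS. The AGE+LPS libraries again stood between Control and LPS, and FruArg+LPS overlapped with LPS. Wdr12 fell by 1.00 ± 0.21 with LPS (edgeR adjusted p = 0.0055), at the edge of the 2-fold rule: the log2 fold change was -0.99 without Control replicate 2 and -0.91 without LPS replicate 2, and by DESeq2, with RLE size factors and with the other filters it also missed that rule. Grwd1, a chaperone of a ribosomal protein, fell by 0.83 ± 0.26, from 34.3 and 29.4 CPM in Control to 20 and 14.7 in LPS, with 29.6 and 25.2 in AGE+LPS and 15.2 and 17.5 in FruArg+LPS (edgeR adjusted p = 0.036). Its adjusted p was 0.22 without Control replicate 1, 0.094 without Control replicate 2 and 0.083 without LPS replicate 2, and 0.066 by DESeq2 (0.0008 to 0.066 over alternatives that keep all libraries). Without LPS replicate 1 it was a DEG, with a log2 fold change of -1.05.

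Ddx18, an RNA helicase of the same pathway, stood at 17.5 and 14.9 CPM in Control, 8.26 and 7.28 in LPS, 11.4 and 9.71 in AGE+LPS, and 15.2 and 13.0 in FruArg+LPS. LPS was lowest and the FruArg+LPS libraries came close to Control. Ddx18 fell by 1.01 ± 0.29 with LPS (edgeR adjusted p = 0.026), with an adjusted p of 0.16 without Control replicate 1 and 0.074 without Control replicate 2, and a log2 fold change of -0.91 without LPS replicate 2. By DESeq2 its adjusted p was 0.065 (0.0016 to 0.065 over alternatives that keep all libraries), and it was no DEG with the filter of at least 1 count. It shares 34.6% of its stretches of 100 bases with other annotated genes, mainly Gm16433, and its counts are uncertain for that reason.

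Of the members of this role that did not pass, Noc3l was at 30.6 and 31.4 CPM in Control, 34.6 and 39.6 in LPS, 29.7 and 46.9 in AGE+LPS, and 27.6 and 31.2 in FruArg+LPS. Both LPS libraries lay above Control, and the AGE+LPS libraries spanned those of both groups. Noc3l had a log2 fold change with LPS of 0.29 ± 0.22 (edgeR adjusted p = 0.35), and -0.13 under scaling by library size. Rrs1, needed for the precursor of the large subunit, had 43.0 and 43.2 CPM in Control, 37.1 and 30.7 in LPS, 64.3 and 47.5 in AGE+LPS, and 56.3 and 47.2 in FruArg+LPS. LPS was lowest and both co-treatments lay above Control. The log2 fold change of Rrs1 with LPS was -0.31 ± 0.22 (edgeR adjusted p = 0.32). Nip7, the most abundant of the role, stood at 135 and 130 CPM in Control, 125 and 121 in LPS, 122 and 138 in AGE+LPS, and 101 and 111 in FruArg+LPS. These levels lay close together, with FruArg+LPS lowest, and the log2 fold change with LPS was -0.08 ± 0.19. Bop1 and the rRNA methyltransferase Nop2 passed with the block and without LPS replicate 1, with log2 fold changes of -0.71 and -0.43 and edgeR adjusted p-values of 0.052 and 0.22. With the block these were 0.0006 and 0.022, and over alternatives that keep all libraries they ran from 0.0006 to 0.080 and from 0.022 to 0.37. Without LPS replicate 1 they were 0.0032 and 0.014. Brix1 (-0.23 ± 0.32) passed without LPS replicate 2, at 0.041.

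Of 5 members of late small-subunit maturation, Nob1, the endonuclease that makes the final cut of the small-subunit RNA, fell. Its levels were 27.1 and 19.8 CPM in Control, 11.5 and 9.76 in LPS, 20.6 and 20 in AGE+LPS, and 13.1 and 16.4 in FruArg+LPS. Both AGE+LPS libraries lay within the range of Control, and the FruArg+LPS libraries between LPS and Control. Nob1 fell by 1.09 ± 0.28 with LPS (edgeR adjusted p = 0.017), with an adjusted p of 0.16 without Control replicate 1 and a log2 fold change of -0.95 without LPS replicate 2. Ltv1, which takes part in the export of the small subunit, was at 29.0 and 39.6 CPM in Control, 37.2 and 43.5 in LPS, 36.7 and 49.5 in AGE+LPS, and 31.5 and 33.5 in FruArg+LPS. The groups overlapped apart from FruArg+LPS, which was lower than LPS and AGE+LPS. Its log2 fold change with LPS was 0.26 ± 0.24, and -0.17 under scaling by library size. Tsr1, Rrp12 and Bysl, which also act on the late small subunit, were lower in both LPS libraries than in both Control libraries, by log2 fold changes of -0.62, -0.57 and -0.53. By edgeR the adjusted p-values were 0.090, 0.16 and 0.17, and with the block they were 0.0057, 0.010 and 0.040 (0.0057 to 0.17, 0.010 to 0.28 and 0.022 to 0.36 over alternatives that keep all libraries). Tsr1 also passed without LPS replicate 2 (0.0080), and Rrp12 (0.010) and Bysl (0.049) without LPS replicate 1.

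**Figure D3:**
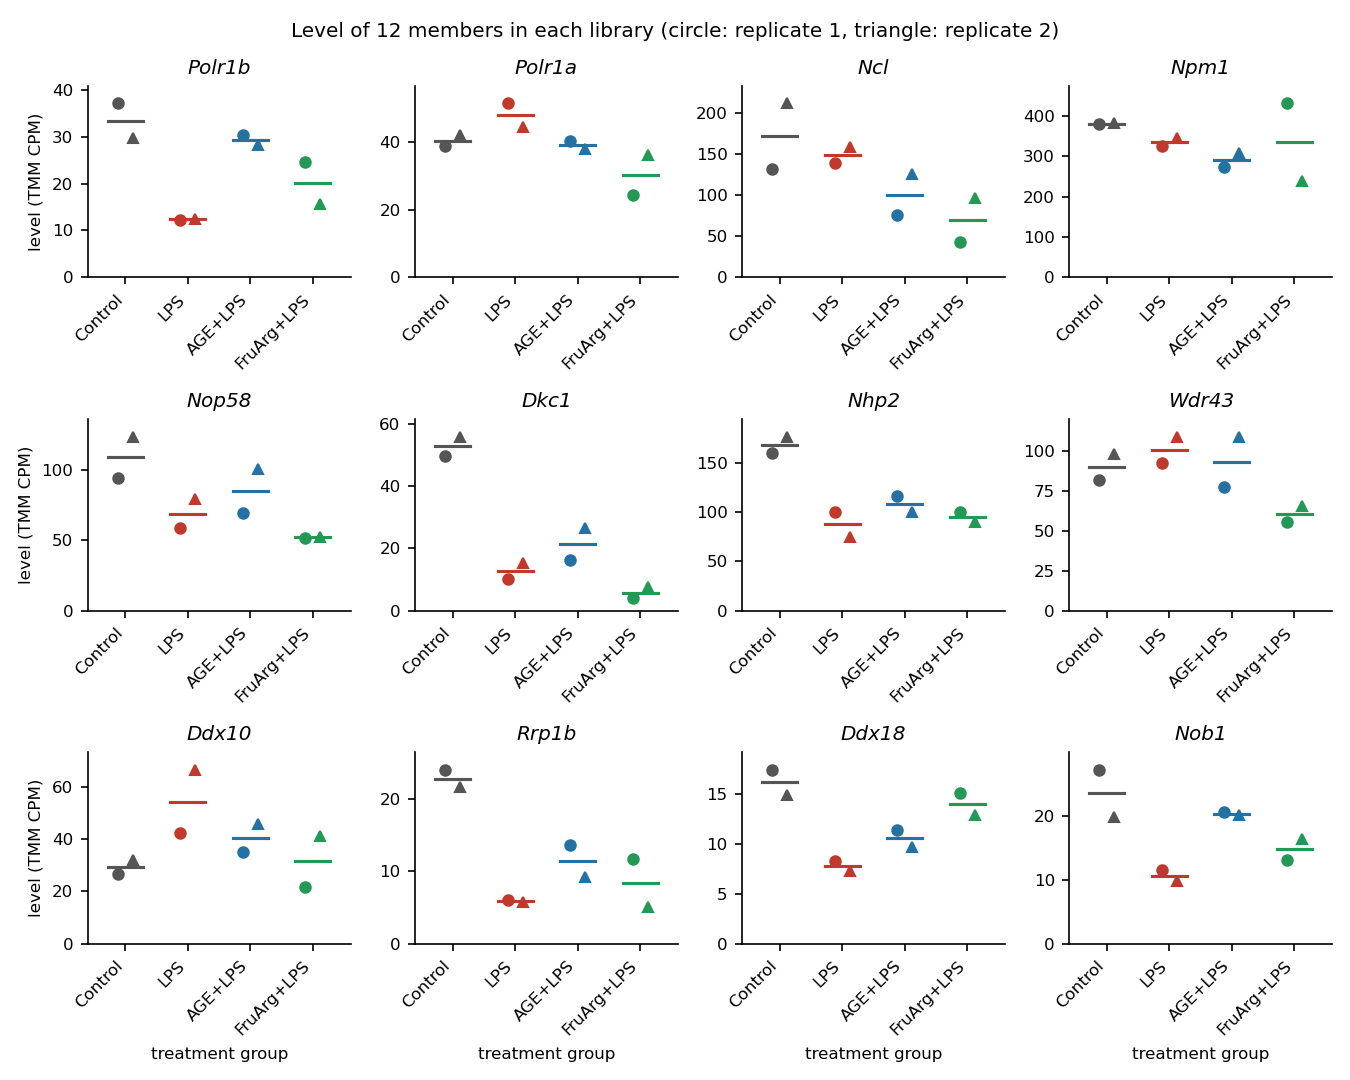
Each panel shows 1 member, with the level in TMM CPM on the vertical axis and the 4 treatment groups on the horizontal axis, a circle for replicate 1, a triangle for replicate 2 and a line at the mean. Polr1b reads 12.3 and 12.5 CPM in LPS and 30.4 and 28.2 CPM in AGE+LPS, and Dkc1 is highest in Control and lowest in FruArg+LPS, at 3.90 and 7.62 CPM.

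The comparison of AGE+LPS with LPS asks what the extract adds to the stimulus. Log2 fold changes were positive for 33 of the 42 members, and none passed the edgeR test. They were positive for all 4 members of box C/D, all 3 of box H/ACA, all 5 of late small-subunit maturation, 12 of 13 of large-subunit assembly, 4 of 6 of nucleolar organisation, 4 of 8 of the processome and 1 of 3 of RNA polymerase I. Under scaling by library size Brix1 (-0.07), Utp15 (-0.02) and Wdr43 (-0.10) turned positive too. Polr1b had the largest value, at 1.24 ± 0.23, followed by Rrp1b at 0.97 ± 0.33 and Nob1 at 0.94 ± 0.26. In each of these 3 genes both AGE+LPS libraries lay above both LPS libraries. Ncl, Ddx10 and Polr1a had the lowest values, at -0.57 ± 0.28, -0.42 ± 0.29 and -0.29 ± 0.21.

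The edgeR test called 0 of the 42 members as DEGs and 0 at an adjusted p below 0.05, beside 0.796% of the 12317 genes by either rule. DESeq2 called 1 member (528 of 21850 genes), and 8 members, all higher, had an edgeR unadjusted p below 0.05 (1057 genes higher and 1137 lower). In 22 members both AGE+LPS libraries lay above both LPS libraries, beside 24.0% of genes, and in 4 they lay below, beside 23.3%. The median log2 fold change was 0.31 for the members and -0.00 for all genes. Under scaling by library size these medians were 0.45 and 0.15. Within lanes the members' median was 0.24 for replicates 1 and 0.36 for replicates 2, with 26 members higher and 6 lower in both lanes (4690 and 4799 of 12317 genes).

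The call of Polr1b rested on the model. Over all 12317 genes, the block raised the number at an adjusted p below 0.05 from 98 to 4961. Its adjusted p was 0.061 by edgeR, 5.6e-10 with the replicate number as a block, 0.015 by DESeq2 (5.6e-10 to 0.067 over alternatives that keep all libraries) and 0.039 without AGE+LPS replicate 2, a fit with 619 DEGs among 13121 genes. With the block it was the 1 DEG among the members, beside 9.73% of genes. At an adjusted p below 0.05 with the block, 19 members were higher, beside 19.3% of genes, and 2 were lower (Ncl and Ddx10), beside 21%. With the block and all 4 groups in 1 fit, these counts were 11 higher, beside 1086 of 12873 genes, and 1 lower, beside 1261. The 19 included Polr1b, Heatr1, Rrs1, Nob1 and Nop56. Heatr1, with a log2 fold change of 0.81 ± 0.21, had an edgeR adjusted p of 0.12, or 1.3e-09 with the block (1.3e-09 to 0.12 over alternatives that keep all libraries). That of Rrs1 (0.73 ± 0.25) was 0.20, and 7.2e-07 with the block (7.2e-07 to 0.23). The block gave Nob1 1.1e-05 in place of 0.13 (1.1e-05 to 0.17) and Nop56 (0.61 ± 0.21) 6.2e-05 in place of 0.20 (6.2e-05 to 0.36).

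By role, the median log2 fold change with the extract was 0.63 for box C/D, 0.65 for box H/ACA, 0.46 for late small-subunit maturation, 0.31 for large-subunit assembly, 0.21 for nucleolar organisation, -0.00 for the small-subunit processome and -0.16 for RNA polymerase I. The same roles had medians of -0.65, -0.91, -0.57, -0.31, -0.55, 0.03 and 0.09 in LPS against Control. The 2 comparisons share the LPS libraries, so an excess or a lack in these moves both in opposite directions, and no relation between them was computed. With AGE+LPS against Control, which does not use the LPS libraries, the medians by role were -0.10, -0.62, -0.13, -0.18, -0.36, -0.06 and -0.10.

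The comparison of FruArg+LPS with LPS asks the same of FruArg. Members went both ways, and none passed the edgeR test: Ddx18, Polr1b and Rrs1 had the highest log2 fold changes, at 0.86 ± 0.36, 0.70 ± 0.34 and 0.62 ± 0.27, and Dkc1, Ncl and Nop14 the lowest, at -1.13 ± 0.45, -1.09 ± 0.36 and -0.80 ± 0.35. In these 6 genes the FruArg+LPS libraries did not overlap with those of LPS. Ddx10 and Wdr43 of the processome had log2 fold changes of -0.78 ± 0.37 and -0.73 ± 0.25, and Nop56 of 0.59 ± 0.28.

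By edgeR 0 of the 42 members were DEGs and 0 had an adjusted p below 0.05, beside 0.00% of the 12071 genes by either rule. DESeq2 also called 0 members (195 of 21303 genes), and 6 members had an edgeR unadjusted p below 0.05, with 2 higher and 4 lower (790 and 753 genes). In 10 members both FruArg+LPS libraries lay above both LPS libraries, beside 23.2% of genes, and in 15 they lay below, beside 24.0%. The median log2 fold change was -0.03 for the members and -0.01 for all genes. Within lanes the members' median was -0.18 for replicates 1 and -0.01 for replicates 2, with 12 members higher and 17 lower in both lanes (4139 and 4357 of 12071 genes).

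With the block, Dkc1 and Ncl were the 2 DEGs, beside 6.35% of genes, and at an adjusted p below 0.05 there were 4 higher members, beside 8.23%, and 6 lower ones, beside 9.36%. The adjusted p of Dkc1 was 0.36 by edgeR or 0.017 with the block (0.0078 to 0.36 over alternatives that keep all libraries), and that of Ncl was 0.29, or 3.2e-06 with the block (3.2e-06 to 0.29). The 4 higher members with the block were Nop56, Bop1, Rrs1 and Noc2l, and the 6 lower ones were Polr1a, Ncl, Dkc1, Wdr43, Nop14 and Ddx10. Without FruArg+LPS replicate 2, which leaves the library that stood apart, Ncl (-1.81), Dkc1 (-1.71), Nop14 (-1.40) and Ddx10 (-1.33) were DEGs by edgeR, 4 in all, beside 1549 of 13122 genes. Without FruArg+LPS replicate 1 there were 0 DEGs among the members, as in the full comparison, and the median log2 fold change was -0.05. The sign of Npm1 (0.01 with all libraries) was negative in that fit at -0.47, with the block at -0.05 and by DESeq2 at -0.02, and Rrp1b went from 0.52 to -0.18.

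FruArg+LPS and AGE+LPS were compared directly, since a change against LPS that passes in the one and not in the other is no test of a difference. Of the 42 members, 33 were lower with FruArg than with the extract in both lanes and 3 were higher (3825 and 3771 of 11915 genes), and none passed the edgeR test. The median log2 fold change was -0.39 for the members and -0.02 for all genes, and within lanes it was -0.32 and -0.30. Dkc1 had the lowest value, at -1.88 ± 0.44, with both FruArg+LPS libraries below both AGE+LPS libraries, followed by Gnl3 at -0.82 ± 0.35 and Grwd1 at -0.75 ± 0.30.

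By edgeR 0 members were DEGs and 0 had an adjusted p below 0.05, beside 0.00% of the 11915 genes by either rule. DESeq2 also called 0 (4 of 20504 genes), and 6 members, all lower, had an edgeR unadjusted p below 0.05 (263 genes lower and 405 higher). With the block, Dkc1 was a DEG (1 member, beside 0.898% of genes), and Dkc1, Gnl3 and Nop58 had an adjusted p below 0.05 (3 members, beside 3.20% of genes in either direction). The edgeR adjusted p of Dkc1 was 0.84 without the block, 0.0029 with it (0.0029 to 0.82 over alternatives that keep all libraries), 0.016 without AGE+LPS replicate 1 and 0.007 without FruArg+LPS replicate 2. Over all genes these fits without a library gave 51 DEGs of 12274 and 233 of 12608. Without FruArg+LPS replicate 1 the count was 0 and the members' median was -0.29.

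The comparisons with Control ask how far the co-treated cells stand from untreated ones. In AGE+LPS, Dkc1 fell by 1.30 ± 0.27 (edgeR adjusted p = 0.0094), Rrp1b by 0.97 ± 0.28 (edgeR adjusted p = 0.040) and Nolc1 by 0.87 ± 0.21 (edgeR adjusted p = 0.018), with both AGE+LPS libraries below both Control libraries in each. In FruArg+LPS, Dkc1 fell by 3.15 ± 0.34 (edgeR adjusted p = 0.00059), and Rrp1b, Ncl, Nolc1, Gnl3, Nop58, Wdr12 and Heatr1 fell by 1.42, 1.27, 1.25, 1.14, 1.04, 1.04 and 1.01. Noc2l, of large-subunit assembly, rose by 0.71 ± 0.19 in FruArg+LPS (edgeR adjusted p = 0.033). Its exons overlap those of Samd11 on the opposite strand by 20.9%, so its counts are uncertain, and its adjusted p was 0.055 by DESeq2 (0.0020 to 0.26 over alternatives that keep all libraries).

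In AGE+LPS against Control, 1 member was a DEG by edgeR, beside 15.0% of the 12449 genes, and at an adjusted p below 0.05 there were 3 lower, beside 9.25%, and 0 higher, beside 10.5% (DESeq2 0 higher, and 1 higher at an unadjusted p below 0.05, as were 2043 genes). With the block, 2 were DEGs (Dkc1 and Rrp1b), beside 18.0%, 11 were lower at an adjusted p below 0.05, beside 18.5%, and 2 were higher, beside 20.2%. Scaled by library size, 4 members were DEGs and 9 had an edgeR adjusted p below 0.05, all lower (1385 and 1905 of 12449 genes were lower by these rules). The members' median log2 fold change was -0.17, that of all genes 0.01. Of the calls, that of Nolc1 was lost without Control replicate 2 (adjusted p 0.27), and that of Rrp1b without Control replicate 1 (0.15), Control replicate 2 (0.10) or AGE+LPS replicate 2 (0.080), and by DESeq2 (0.079, with 0.00039 to 0.11 over alternatives that keep all libraries). Dkc1 fell by 0.98 without AGE+LPS replicate 1, under the 2-fold rule. There were 3 lower DEGs without Control replicate 1, beside 861 of 13009 genes, and 2 without AGE+LPS replicate 2, beside 1056 of 13127, and Ncl was among them in both. At an adjusted p below 0.05, omitting Control replicate 2 left 1 member, beside 1380 of 12681 genes, omitting AGE+LPS replicate 1 gave 6 lower and 1 higher (Ddx10), beside 1458 and 1682 of 12984, and omitting AGE+LPS replicate 2 gave 6 lower and 2 higher (Rrs1 and Noc2l), beside 1519 and 1861 of 13127.

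In FruArg+LPS against Control, 8 members were lower DEGs by edgeR, beside 7.84% of the 12038 genes, and 0 were higher (DESeq2 0, and 1 higher at an unadjusted p below 0.05, as were 2322 genes), beside 9.59%. At an adjusted p below 0.05, 12 were lower, beside 9.59%, and 1 was higher, beside 12.8%. With the block 20 were lower, beside 15.5%, and 1 was higher, beside 18.9%. Scaled by library size, 18 members were DEGs and 26 had an edgeR adjusted p below 0.05, all lower (1936 and 2646 of 12038 genes were lower by these rules). The median log2 fold change was -0.54 for the members and 0.00 for all genes, and the median within both lanes was -0.55. There were 6 lower DEGs without FruArg+LPS replicate 1 (beside 1283 of 12797 genes), 3 without Control replicate 2 (577 of 12279), 6 without Control replicate 1 (741 of 12795) and 10 without FruArg+LPS replicate 2 (1849 of 12576). Nolc1 and Dkc1 were DEGs in all 4 of these fits. Lost were Rrp1b and Heatr1 without Control replicate 1, Gnl3, Ncl, Nop58, Rrp1b and Wdr12 without Control replicate 2, Gnl3, Heatr1, Ncl and Wdr12 without FruArg+LPS replicate 1, and Rrp1b without FruArg+LPS replicate 2. Gained were Noc4l and Polr1b without FruArg+LPS replicate 1, and Brix1, Grwd1 and Nop14 without FruArg+LPS replicate 2. Noc2l passed in neither fit without a Control library (adjusted p 0.25 and 0.28). At an adjusted p below 0.05, 7 members were lower without Control replicate 1 (beside 767 genes), 3 without Control replicate 2 (588), 17 were lower and 1 higher without FruArg+LPS replicate 1 (1775 and 2151), and 20 were lower and 1 higher without FruArg+LPS replicate 2 (2513 and 2499).

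Other genes of the pathway were counted in the same way. Of 98 further ribosome biogenesis genes listed, 94 were matched and tested, and with LPS 8 were higher (16.3% of all genes were) and 9 lower (14.3%) at an edgeR adjusted p below 0.05, with a median log2 fold change of -0.16. Utp23 (1.52), Eif6 (1.35), which keeps the large subunit from joining too early, and Pwp1 (1.25) rose most among their DEGs, and Nle1 (-1.45), Polr1e (-1.25), a subunit of RNA polymerase I, and Nop10 (-1), of the box H/ACA snoRNPs, fell most. By DESeq2 the adjusted p of Polr1e was 0.11 in place of 0.035. With the block the counts were 16 higher (24.9% of all genes) and 23 lower (22.9%). The summed level of the 94 was 4972 and 5356 CPM in Control and 5465 and 5454 in LPS. With the co-treatments it was 5082 and 5354 in AGE+LPS, and 4879 and 4922 in FruArg+LPS. Unlike the sum of the members, it was higher in both LPS libraries than in both Control libraries. In AGE+LPS against LPS 0 of the 94 passed by edgeR (0.796% of all genes did; DESeq2 2, and 11 at an unadjusted p below 0.05), and with the block 22 were higher (19.3% of all genes) and 19 lower (21%). In FruArg+LPS against LPS 0 passed (0.00% of all genes; DESeq2 0, and 9 at an unadjusted p below 0.05), and with the block 4 were higher (8.23% of all genes) and 17 lower (9.36%). The same shares of all genes apply to the lists that follow. The 79 cytosolic ribosomal proteins, the products that the members assemble, had a median of -0.04 with LPS, and 3 of them were lower (14.3% of all genes) and 0 higher (16.3%) by edgeR (DESeq2 0 in either direction, and 7 at an unadjusted p below 0.05). With the block 11 were lower (22.9% of all genes) and 3 higher (24.9%). Rps3 was the most abundant. Sharing of sequence with other genes was checked for the members only, so the counts of these proteins carry an unknown uncertainty. In AGE+LPS against LPS 0 of 78 tested passed by edgeR (DESeq2 0, 3 at an unadjusted p below 0.05, and 14 higher and 12 lower with the block), and in FruArg+LPS against LPS 0 of 79 (DESeq2 3, 18 at an unadjusted p below 0.05, and 16 higher and 7 lower with the block).

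Of the Myc network, 8 of 10 listed genes were tested with LPS. Myc rose by 3.46 ± 0.72 on the log2 scale (edgeR adjusted p = 0.0060), from 0 and 5 counts in Control, so the size of this change rests on very low counts, to 3.26 and 4.33 CPM in LPS. Its partner Max rose by 0.89 ± 0.21 and Mxd1, which competes with Myc for Max, by 3.02 ± 0.23. Mxd4, of the same family as Mxd1, fell by 2.72 ± 0.25. Mnt (0.12), Mga (0.33), Mxd3 (-1.12) and Mxi1 (0.50) did not pass, although with the block the adjusted p of Mxi1 was 0.015 in place of 0.097, and under scaling by library size the values of Mnt and Mga were -0.30 and -0.09. Against LPS, 0 of 7 tested passed by edgeR with AGE+LPS (DESeq2 1, 3 at an unadjusted p below 0.05, and 1 higher and 5 lower with the block), and 0 of 8 with FruArg+LPS (DESeq2 1, 2 at an unadjusted p below 0.05, and 1 higher and 1 lower with the block). Mxd1 had log2 fold changes of -1.46 with AGE+LPS and -1.43 with FruArg+LPS. Its adjusted p was 0.069 and 0.18 by edgeR, 0.00083 and 0.0011 by DESeq2, and 4.0e-20 and 3.9e-08 with the block. Mycn and Mycl were not tested, with 0 and 4 counts in the deeper Control library. Any part of these genes in the levels of the members was not tested.

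Genes of cell proliferation also fell with LPS. Of 25 listed, 24 fell with LPS and 0 rose by edgeR (DESeq2 24 lower and 0 higher, and 24 at an unadjusted p below 0.05), with a median log2 fold change of -2.59. Their summed level was 1379 and 1617 CPM in Control, 400.2 and 375 in LPS, 379 and 365 in AGE+LPS, and 319 and 290 in FruArg+LPS, Mcm6 was the most abundant, and no gene of the list was at 0 in all libraries. They passed in 24 of 25 with AGE+LPS and with FruArg+LPS against Control, all lower. Against LPS, 0 of 22 passed by edgeR with AGE+LPS (DESeq2 0, 6 at an unadjusted p below 0.05, and 8 higher and 2 lower with the block) and 0 of 21 with FruArg+LPS (DESeq2 0, 1 at an unadjusted p below 0.05, and 1 lower with the block). Whether proliferation plays a part in the levels of the members was not tested.

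Several members share sequence with other genes, and how the counting treated reads of either strand or with several matches is not given in the sources used. Tsr1 shares 22.0% of its stretches of 100 bases with other genes, mainly its neighbour Srr on the opposite strand, Noc2l 17.5% with Samd11, Fbl 15.3%, Nop56 11.6%, Bysl 6.98% and Pes1 4.87%. Introns of Ncl, Gnl3, Nop56, Nop58 and Dkc1 are known to hold snoRNA genes.

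The promoters of 4 members that fell with LPS are shown, with the E-box CACGTG, the motif that Myc and Max are known to bind, in capitals. The motif reads the same on both strands. RefSeq promoter windows of 300 bases on GRCm38.p6, from 250 bases before to 50 bases after the start of the gene, were found for 37 members, and not for Bop1, Fbl, Npm1, Rrp12 and Rrs1. The motif was present for 8 of the 37 members (21.6%): Grwd1, Ltv1, Mybbp1a, Nop2, Pes1, Tsr1, Utp20 and Wdr43. Of all 27025 genes with a window it was present for 2187 (8.09%). Of the 13 members that passed the edgeR test in LPS against Control 2 held it, and of the 24 others with a window 6 did. The windows of Mybbp1a (chr11:72441077-72441376, plus strand) and Grwd1 (chr7:45830740-45831039, minus strand), which hold the motif and fell with LPS, and of Polr1b (chr2:129100746-129101045, plus strand) and Dkc1 (chrX:75095604-75095903, plus strand), which fell and do not hold these letters, read as follows.
Mybbp1a: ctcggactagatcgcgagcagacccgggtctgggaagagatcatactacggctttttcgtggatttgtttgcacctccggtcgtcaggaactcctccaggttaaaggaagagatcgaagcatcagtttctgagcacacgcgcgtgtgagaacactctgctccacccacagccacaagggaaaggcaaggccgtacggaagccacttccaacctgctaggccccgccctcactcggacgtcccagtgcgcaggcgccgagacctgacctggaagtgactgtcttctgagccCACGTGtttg
Grwd1: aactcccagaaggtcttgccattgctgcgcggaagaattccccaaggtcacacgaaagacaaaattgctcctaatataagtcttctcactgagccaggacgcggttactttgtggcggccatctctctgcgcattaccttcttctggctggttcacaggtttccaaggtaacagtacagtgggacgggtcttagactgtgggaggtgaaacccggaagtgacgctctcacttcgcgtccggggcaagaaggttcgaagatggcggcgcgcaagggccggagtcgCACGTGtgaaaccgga
Polr1b: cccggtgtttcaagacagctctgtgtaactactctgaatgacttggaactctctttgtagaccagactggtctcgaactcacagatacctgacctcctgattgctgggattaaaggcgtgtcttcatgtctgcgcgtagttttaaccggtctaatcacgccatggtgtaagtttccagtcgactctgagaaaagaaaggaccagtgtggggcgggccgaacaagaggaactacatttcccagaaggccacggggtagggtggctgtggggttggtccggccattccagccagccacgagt
Dkc1: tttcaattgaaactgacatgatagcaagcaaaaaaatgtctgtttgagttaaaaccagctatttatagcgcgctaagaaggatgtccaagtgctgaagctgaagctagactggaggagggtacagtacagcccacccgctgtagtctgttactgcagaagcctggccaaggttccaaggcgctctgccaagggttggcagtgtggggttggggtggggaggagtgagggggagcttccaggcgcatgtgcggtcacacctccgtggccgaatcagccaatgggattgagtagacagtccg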

How the data were processed

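The data are counts of reads per Ensembl gene in 8 libraries. Adaptors were clipped and reads filtered with fastx_toolkit, mapped with TopHat2 to GRCm38 and counted with featureCounts by the authors, who deposited raw counts without normalization. Every column of the table was used. The members and the other lists were chosen with earlier results of these data known. Genes were matched to GENCODE M21 (45229 of 46078 by Ensembl ID).

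For each of the 6 comparisons edgeR 4.0.16 was run on its 4 libraries alone (filterByExpr, TMM, quasi-likelihood F-test on both sides, Benjamini-Hochberg over all genes tested) in R 4.3.3. A DEG had an adjusted p below 0.05 and a log2 fold change of 1 or more either way. Per-library levels are CPM scaled by TMM over all 8 libraries. Ratios within lanes used a pseudocount of 1 CPM. Alternatives were DESeq2 1.42.0, RLE size factors, library size as the scale, other filters (1 count in any library, or 10 counts in all), no minimum fold, all groups in 1 fit, a block for the replicate number, and fits that omit 1 library. Ranges over alternatives that keep all libraries leave out the last kind. Such a fit assumes that the lone library of its group varies like the other group. Sharing of sequence was checked on stretches of 100 bases of the annotated transcripts. The fits were tested on simulated data. The edgeR fit without the block called the changed genes when lanes were made alike and missed them when lanes were made to differ. The edgeR fit with the block called them in both cases. The simulated lane difference was the same in both groups, which a block removes by construction. That outcome therefore does not show that the block suits these libraries, and calls of unchanged genes are not given. Python 3.11.15 with matplotlib 3.10.9 made the figures.

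By the labels all replicates 1 ran in lane 3 and all replicates 2 in lane 6. Their column names differ by a further tag as well, so the block and the ratios within lanes are by replicate number. To check this pairing, differences of replicate 2 from replicate 1 were correlated over 12873 genes: r was lowest for Control with FruArg+LPS (0.291) and highest for LPS with AGE+LPS (0.679). Genes are not independent replicates. Counts of members with the block stand beside those without it. Counts of replicates differed by more than sampling, with a chi-square over its degrees of freedom of 12.4 in Control, 44.6 in LPS, 26.1 in AGE+LPS and 23.7 in FruArg+LPS. Between 2 groups of 2 libraries no rank or permutation test can pass 0.05, and none was run, also not over all 4 groups.

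Members were given with values in every library by rule: the most abundant of each role and the 3 highest and 3 lowest log2 fold changes in LPS against Control and in each co-treatment against LPS. Nolc1, Mybbp1a, Nop56, Heatr1, Wdr12 and Grwd1 were added after their values were seen, as the remaining members that passed with LPS. Of the other ribosome biogenesis genes, the 3 highest and 3 lowest DEGs with LPS were named, of the Myc network every gene, and of other lists at most 3, the most abundant.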

Additional observations from a re-analysis of the deposited data

Results flagged for a closer look

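In 6 members the difference between FruArg+LPS and AGE+LPS drew attention, because the co-treatments went opposite ways from LPS or because the direct test passed with the replicate number as a block. For Dkc1 the log2 fold change of FruArg+LPS against AGE+LPS was -1.88, for Nolc1 -0.40, for Utp20 -0.60 and for Nop16 -0.40. In each of these both AGE+LPS libraries lay above, and both FruArg+LPS libraries below, both LPS libraries, and the 2 co-treatments share those LPS libraries. How many other genes show both was not counted. Taken alone, AGE+LPS libraries above LPS were seen in 24.0% of genes, and FruArg+LPS libraries below LPS in 24.0%. For Gnl3 and Nop58, whose AGE+LPS libraries overlapped with LPS, it was -0.82 and -0.71. The edgeR adjusted p was 0.84 for each of the 6. With the block it was 0.0029 for Dkc1 (0.0029 to 0.82 over alternatives that keep all libraries), 0.046 for Gnl3 (0.032 to 0.95), 0.047 for Nop58 (0.031 to 0.93), 0.30 for Nolc1, 0.11 for Utp20 and 0.27 for Nop16. The cause of the differences was not tested.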

How the results depend on the processing

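With 2 libraries a group, calls rest on few samples. The medians of the members kept their sign in LPS, AGE+LPS and FruArg+LPS against Control, in AGE+LPS against LPS and in FruArg+LPS against AGE+LPS under each alternative run. The cause of each change listed here was not tested, other than that scaling by library size shifts all genes.

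Scaling by library size gave 16 DEGs among the members in LPS against Control, 4 in AGE+LPS against Control and 18 in FruArg+LPS against Control, all lower. Over all genes it gave 2666 lower DEGs of 12888, 1385 of 12449 and 1936 of 12038 in these comparisons. Scaled this way, the members had medians of -0.96 in LPS against Control, 0.45 in AGE+LPS against LPS, -0.42 in AGE+LPS against Control, -0.94 in FruArg+LPS against Control and -0.52 in FruArg+LPS against AGE+LPS, with summed levels of 3370 (Control), 1967 (LPS) and 1842 (FruArg+LPS) CPM. The sign turned in LPS against Control for Polr1c (-0.33), Wdr43 (-0.23), Ltv1 (-0.17), Polr1a (-0.14), Noc3l (-0.13), Nop14 (-0.18), Utp15 (-0.30) and Noc2l (-0.22), and in AGE+LPS against LPS for Wdr43 (0.042), Utp15 (0.13) and Brix1 (0.08). It also turned in AGE+LPS against Control for Fbl, Gar1, Utp15, Wdr43, Nop16 and Bysl, in FruArg+LPS against Control for Polr1c, Utp15, Ddx10, Pes1 and Rrs1, and in FruArg+LPS against AGE+LPS for Utp15 and Bop1. By DESeq2 it turned for Npm1 and Ddx21 in FruArg+LPS against LPS and for Nip7 in AGE+LPS against Control.

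In LPS against Control, DESeq2 and the filter of at least 1 count each gave 7 DEGs (2573 and 3236 of 21997 genes), and RLE size factors and the filter of at least 10 counts each gave 8 (2913 of 12888 and 2292 of 10731). In AGE+LPS against LPS, DESeq2, a filter of at least 1 count, 1 fit of all groups, the block and the block in 1 fit each gave 1 DEG, Polr1b (over all genes 528 and 927 of 21850, 376 of 12873, 1199 of 12317 and 895 of 12873). In FruArg+LPS against LPS, the filter of at least 1 count gave 1 (Ncl; 503 of 21303 genes), and the block, in pairs or in 1 fit, gave 2 (766 of 12071 and 853 of 12873). In AGE+LPS against Control, no minimum fold gave 3 (2456 of 12449 genes) and the block, in either form, 2 (2240 of 12449 and 2037 of 12873). In FruArg+LPS against Control, no minimum fold gave 13 (2694 of 12038 genes). In FruArg+LPS against AGE+LPS, the filter of at least 1 count and the block, in either form, gave 1, Dkc1 (40 of 20504, 107 of 11915 and 151 of 12873 genes). Npm1 in FruArg+LPS against LPS turned to -0.020 by DESeq2, -0.012 with at least 1 count, -0.024 with at least 10, -0.050 with the block and -0.021 with the block in 1 fit. The block changed no other call of a member as a DEG. At an adjusted p below 0.05, the block in 1 fit gave 1 higher and 8 lower members in AGE+LPS against Control (2092 and 1809 of 12873 genes), and 5 in FruArg+LPS against AGE+LPS (564 genes).

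With 1 library left out, DEGs among the members numbered 6 to 12 in LPS against Control, 0 to 1 in AGE+LPS against LPS, 0 to 4 in FruArg+LPS against LPS, 1 to 3 in AGE+LPS against Control, 3 to 10 in FruArg+LPS against Control and 0 to 1 in FruArg+LPS against AGE+LPS. Over all genes DEGs in the same order numbered 2429 to 3256, 349 to 646, 5 to 1549, 1380 to 2170, 1448 to 3416 and 10 to 233. The medians ran from -0.53 to -0.40 in LPS against Control, from -0.64 to -0.46 in FruArg+LPS against Control and from -0.46 to -0.29 in FruArg+LPS against AGE+LPS. Log2 fold changes ran through 0 in LPS against Control for Polr1c (-0.025 to 0.18), Ncl (-0.47 to 0.20), Wdr75 (-0.18 to 0.06) and Brix1 (-0.74 to 0.14). In AGE+LPS against LPS they did so for Polr1c (-0.44 to 0.074), Wdr43 (-0.36 to 0.12), Ltv1 (-0.13 to 0.29) and Noc3l (-0.31 to 0.34), and for Gnl3, Utp15, Wdr75, Noc4l, Nop2 and Brix1, and in FruArg+LPS against LPS for Polr1c (-0.15 to 0.12), Npm1 (-0.47 to 0.36), Nhp2 (-0.065 to 0.33) and Rrp1b (-0.18 to 1.00), and for Mybbp1a, Ddx21, Fbl, Utp15, Wdr12, Nop2, Grwd1, Rrp12 and Tsr1. They did so in AGE+LPS against Control for Polr1a, Polr1b, Polr1c, Gnl3, Fbl, Gar1, Wdr43, Wdr75, Nop14, Bop1, Nop16, Noc3l, Brix1, Nip7, Rrp12 and Nob1, in FruArg+LPS against Control for Polr1c, Npm1, Fbl, Rrp9, Gar1, Ddx10, Pes1, Noc3l and Ltv1, and in FruArg+LPS against AGE+LPS for Polr1c, Npm1, Fbl, Nop56, Utp15, Ddx10, Bop1, Rrs1 and Rrp1b.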
